A study of Mus musculus with 3 samples.

Results

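Interferon-stimulated genes and the RNA sensors that feed into them were examined in mouse embryonic stem (ES) cells of 3 kinds, labelled as Pcgf6 knockout with Flag-tagged Pcgf6, Pcgf6 knockout, and wildtype. The set of 39 genes was chosen by name from the interferon and RNA-sensing pathways, out of 20274 genes named on the array. Earlier results of these data were known when this set and the other gene lists below were chosen. Their shares beside all genes are therefore descriptions. The set holds 5 genes grouped as sensors, the adaptor Mavs among them, 7 transcription factors, 7 GTPases and 20 antiviral effectors. Of the 39, 37 matched a probe by RefSeq accession, 35 were well above background on at least 1 array and 31 on all 3. Mx1 and Mx2 had no matching probe.

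Total RNA was measured on 3 one-colour Cy3 arrays, 1 for each group, so there was no replicate check and no test between groups. The groups were Pcgf6KO+ Pcgf6_flag, a knockout line into which, by its name, Flag-tagged Pcgf6 was introduced with a lentivirus, Pcgf6KO, made by Cas9 editing, and wildtype. All 3 were labelled male ES cells and grew in serum with leukemia inhibitory factor on a layer of mouse embryonic fibroblasts that mitomycin-C had stopped from dividing, so each RNA could hold transcripts of those feeder cells. The number of clones, the edit's sequence and the promoter driving the Flag-tagged copy are not given in the labels used here.

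Cells sense viral RNA in the cytoplasm through helicases of the RIG-I family, which signal through the mitochondrial adaptor Mavs to interferon regulatory factors and so to the interferon genes. Secreted interferon acts back on cell-surface receptors, whose Janus kinases activate STAT proteins. Stat2 and Irf9 act in a complex that binds the interferon-stimulated response element, and a related element, the gamma-activated site, serves interferon gamma, in front of genes for GTPases and antiviral proteins. ES cells are known for a weak interferon response. Pcgf6 is the defining subunit of the Polycomb complex PRC1.6, a repressor known for silencing germline genes in ES cells.

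Values are scaled levels, the log2 signal of a probe minus log2 of the 75th percentile of its array, so 0 is the brightness of the 75th percentile. The probe for Pcgf6 had a scaled level of 0.43 on the array labelled Pcgf6KO+ Pcgf6_flag, 0.84 on the Pcgf6KO array and 1.87 on the wildtype array. The log2 difference was -1.03 for Pcgf6KO against wildtype, the direction the knockout label gives, but the array labelled as re-expressing Pcgf6 was lower still. The labels used here do not place this probe inside or outside the edited stretch or the lentiviral copy, so each direction drawn from that array rests on its label. Pluripotent stem cell markers were well above background on every array for 14 of 14 genes, and 0 of the 14 differed 2-fold in any comparison. Pou5f1 was at 4.37, 4.42 and 4.62 in the same array order, and Nanog at 5.33, 4.85 and 4.96.

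Most fibroblast markers, which feeder cells express, moved with the groups. Of 26 fibroblast markers, 18 were well above background on the array labelled Pcgf6KO+ Pcgf6_flag, 23 on the Pcgf6KO array and 25 on the wildtype array. Their summed linear signal, in units of the 75th percentile, was 32.0, 49.8 and 92.6 in that order. Col3a1, a fibrillar collagen, was at -4.86, -2.04 and 0.43, Prrx1 and Postn were well above background only in wildtype, and Lum on no array. Not all markers moved this way. Fn1 was at 3.40, 3.30 and 3.39 and Ccn2 at 2.69, 2.59 and 2.91. Col5a2 and Mmp2 were the 2 of 23 measured that were higher in Pcgf6KO than in wildtype, by 0.98 and 0.29. Median differences of the measured fibroblast markers were -0.93 for Pcgf6KO against wildtype, -1.85 for the array labelled Pcgf6KO+ Pcgf6_flag against Pcgf6KO and -2.86 for it against wildtype. In bulk RNA, fewer cells of a type and less RNA per cell cannot be told apart. Of 14 leukocyte and macrophage markers, 8, 9 and 9 were well above background, with summed signals of 31.9, 23.4 and 27.7. Itgam, an integrin chain named after its values were seen, was at 4.797, 4.35 and 4.57 and made up most of these sums, which were 4.10, 3.05 and 3.92 without it. Csf1r, the receptor for macrophage colony-stimulating factor, was at 1.01, 0.38 and 0.22, while Adgre1, Tyrobp, Spi1 and Cd79a were not well above background on any array. The pan-leukocyte gene Ptprc was at -4.66 on the array labelled Pcgf6KO+ Pcgf6_flag, -6.23 in Pcgf6KO and not well above background in wildtype. Other markers of this list had another high array. Lyz2 was well above background only in wildtype, at -4.18, and Fcer1g and Laptm5 were highest there. Aif1 was at -4.38 in Pcgf6KO, -5.76 in wildtype and not well above background on the remaining array. Cd14, at -3.70, -2.70 and -3.56, was also highest in Pcgf6KO. The part of feeder cells in the differences below was not tested.

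More members were 2-fold higher than 2-fold lower in Pcgf6KO ES cells, set against wildtype. Among the 33 members well above background in both, Pcgf6KO had 7 that were at least 2-fold higher, which is 21.2%, beside 5.79% of the 14997 genes measured the same way. The 7 were the RNA sensor Ifih1, the GTPases Gbp2, Gbp3, Igtp and Irgm1, and the effectors Isg15 and Ifit2. The 1 member at least 2-fold lower, Ifi27, made up 3.03% of the 33, beside 2.81% of all genes. The median difference of the 33 members was 0.20, against -0.03 for all genes, and 25 of the 33 lay within 2-fold. Because the set was chosen with earlier results of these data known, these shares describe it and are no test.

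On the array labelled Pcgf6KO+ Pcgf6_flag, set against Pcgf6KO, 7 of 31 measured members were at least 2-fold lower. That was 22.6% of the members, beside 8.36% of 14241 genes, and the 7 were Ifih1, Irf8, Gbp2, Gbp3, Irgm1, Isg15 and Ifi27. Ddx58 and Iigp1 were at least 2-fold higher, 6.45% of the members beside 5.43% of all genes. The split of 2 higher and 7 lower became 1 and 8 with quantile normalization or median scaling, and 2 and 5 with normexp background correction or without scaling. Of all genes measured, 700 were higher and 1248 lower with quantile normalization, and 645 and 1352 with median scaling. These counts were 562 and 973 with normexp, and 933 and 1043 without scaling. The median of the members was 0.15, against 0.03 for all genes. This comparison uses the same Pcgf6KO array as the first, so the values of a gene in the 2 comparisons are not independent, and the array labelled Pcgf6KO+ Pcgf6_flag was alone on its slide, so slide and group cannot be told apart there.

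Set against wildtype, the array labelled Pcgf6KO+ Pcgf6_flag had 3 of 31 measured members at least 2-fold higher, Irf1, Igtp and Iigp1. These were 9.68% of the members, beside 4.91% of 14193 genes. Ifi27 was the 1 member at least 2-fold lower, 3.23% of the members beside 4.81% of all genes. The median was 0.10 for the members and -0.02 for all genes. The members nearest the threshold were Ifit2 at 1.03 and Irf1 at 0.98 for Pcgf6KO against wildtype, Ddx58 at 1.001 and Ifit2 at -0.95 for the array labelled Pcgf6KO+ Pcgf6_flag against Pcgf6KO, and Irf1 at 1.14 and Oas1a at 0.99 for it against wildtype. For scale, the scanner software's own error of a member's log2 difference ran from 0.06 to 0.36, with a median of 0.20, and it covers the reading of the spots, not the spread between cultures.

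**Figure D1:**
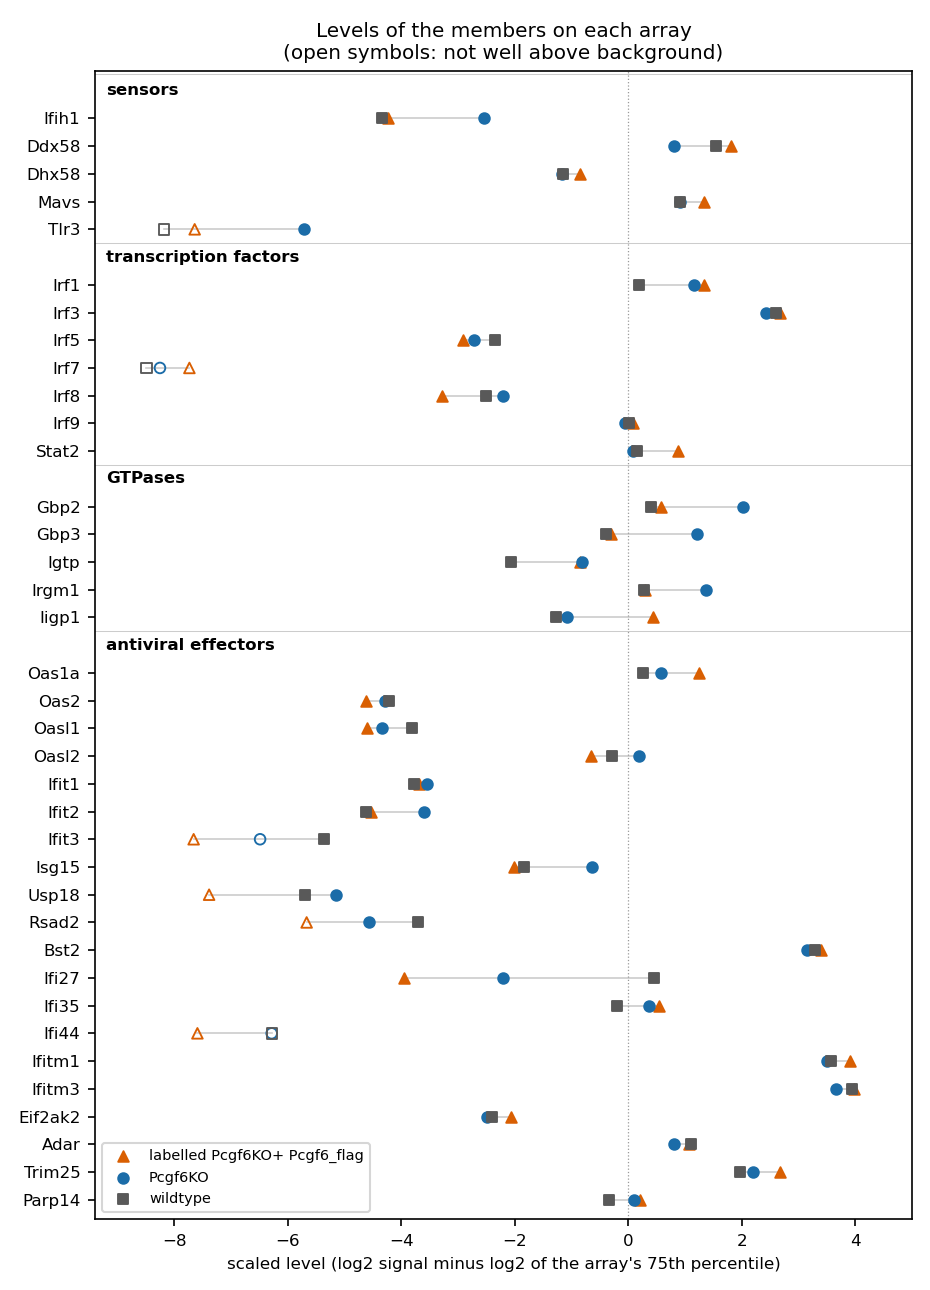
Scaled level (log2 signal minus log2 of the array's 75th percentile, horizontal axis) of each of the 37 members with a probe, in 4 role groups. Triangles are the array labelled Pcgf6KO+ Pcgf6_flag, circles Pcgf6KO and squares wildtype, open where the probe was not well above background, and for Ifih1, Gbp2, Gbp3, Irgm1 and Isg15 the circle lies apart to the right while the other 2 symbols lie together.

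Of the 4 genes grouped as sensors and measured in both Pcgf6KO and wildtype, the adaptor Mavs among them, Ifih1 was past 2-fold. That is 25% higher, beside 5.79% of all genes, in a list too short to be set apart from them. Their median was -0.01. Ifih1, the MDA5 helicase that recognises long double-stranded RNA, was at -4.24 on the array labelled Pcgf6KO+ Pcgf6_flag, -2.55 in Pcgf6KO and -4.34 in wildtype. It was 3.45-fold higher in Pcgf6KO than in wildtype (log2 difference 1.79, scanner error 0.22) and 3.21-fold lower on the array labelled Pcgf6KO+ Pcgf6_flag than in Pcgf6KO (-1.68, scanner error 0.25). The Pcgf6KO array was the high one, and the other 2 were 0.10 apart. The other Ifih1 probe was not well above background on any array.

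Ddx58, the RIG-I helicase that recognises RNA with 5′ triphosphates, was at 1.81, 0.80 and 1.54 on the array labelled Pcgf6KO+ Pcgf6_flag, the Pcgf6KO array and the wildtype array. Here Pcgf6KO was the low array, by -0.74 against wildtype, and the array labelled Pcgf6KO+ Pcgf6_flag was 1.001 above Pcgf6KO on the log2 scale. The second difference was 0.91 under median scaling, and the gene's other probe gave -0.81 and 1.72 for the 2 differences. Dhx58, the LGP2 helicase that modulates the other sensors, was at -0.85, -1.18 and -1.15, and Mavs, the adaptor they share, at 1.33, 0.91 and 0.91. The largest difference of the pair was 0.43, for Mavs on the array labelled Pcgf6KO+ Pcgf6_flag against Pcgf6KO. Tlr3, the endosomal receptor for double-stranded RNA, was well above background only in Pcgf6KO, at -5.72. For such a gene the dim array was given its lowest well-measured signal, or the probe's own signal if that was higher, and the fold against it is a lower bound, which made Tlr3 at least 1.41-fold higher in Pcgf6KO than in wildtype.

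The 6 transcription factors measured in Pcgf6KO and wildtype had a median of -0.07. Beside 5.79% of all genes higher and 2.81% lower, 0 of the 6 reached 2-fold, a count close to those shares for so short a list. The nearest was Irf1, a regulator of interferon-gamma-induced genes, at 1.33 on the array labelled Pcgf6KO+ Pcgf6_flag, 1.16 in Pcgf6KO and 0.18 in wildtype. Wildtype was the low array, by 1.97-fold against Pcgf6KO and 2.21-fold against the array labelled Pcgf6KO+ Pcgf6_flag, and those high arrays were 0.17 apart. Its difference from wildtype passed 2-fold for Pcgf6KO under 4 alternatives, up to 1.11 without scaling, and for the array labelled Pcgf6KO+ Pcgf6_flag it was 0.96 with the mean over probes. That mean, which was also among the 4 and gave 1.03 for Pcgf6KO, takes in another Irf1 probe that was well above background only in Pcgf6KO. Irf8, a factor best known from myeloid cells, was at -3.29, -2.21 and -2.50, so it was 2.11-fold lower on the array labelled Pcgf6KO+ Pcgf6_flag than in Pcgf6KO, with -0.89 in place of -1.07 under normexp background correction. Between Pcgf6KO and wildtype its difference was 0.29.

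Components of the interferon-activated complex and of the sensor pathway varied less. Stat2, the STAT specific to the type I and type III interferon pathways, was at 0.87, 0.09 and 0.15 in the same order, high only on the array labelled Pcgf6KO+ Pcgf6_flag and there by 0.79 against Pcgf6KO. Irf9, its DNA-binding partner, was at 0.09, -0.06 and 0.01. Irf3, the factor that RNA sensing activates first, was at 2.67, 2.42 and 2.61, and Irf5, a factor downstream of Toll-like receptors, at -2.92, -2.71 and -2.36. The largest difference was 0.15 for Irf9 and -0.56 for Irf5. Irf7, which amplifies type I interferon production, was not well above background on any array.

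The GTPases held 4 of the 7 members that were higher in Pcgf6KO, 80% of the 5 measured, beside 5.79% of all genes. All 5 that were measured had a positive difference from wildtype, with a median of 1.25, beside 7029 of 14997 genes with a positive difference. That of Iigp1, 0.20, was no larger than its scanner error of 0.20. Gbp2, a guanylate-binding protein that acts on vacuoles of intracellular pathogens, was at 0.58 on the array labelled Pcgf6KO+ Pcgf6_flag, 2.02 in Pcgf6KO and 0.41 in wildtype. The Pcgf6KO array was high by 3.07-fold against wildtype (1.62, scanner error 0.20), and the array labelled Pcgf6KO+ Pcgf6_flag was 2.71-fold below it (-1.44). Gbp3, its neighbour in the same family, was at -0.31, 1.21 and -0.40, with folds of 3.04 and 2.87 for the same 2 comparisons. For both genes the array labelled Pcgf6KO+ Pcgf6_flag lay within 0.18 of wildtype.

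Irgm1, an immunity-related GTPase that regulates the other members of its family, was at 0.30, 1.37 and 0.28 in the same order. Again only Pcgf6KO was high, 2.13-fold above wildtype and 2.10-fold above the array labelled Pcgf6KO+ Pcgf6_flag, and the gene's other probe gave log2 differences of 1.43 for Pcgf6KO against wildtype and -0.98 for the array labelled Pcgf6KO+ Pcgf6_flag against Pcgf6KO. The value of -1.07 for that last comparison was -0.99 with normexp and -0.97 without scaling. Igtp, also called Irgm3, was at -0.86, -0.82 and -2.07, so the first 2 arrays were close and wildtype was low, by 2.37-fold against Pcgf6KO and 2.32-fold against the array labelled Pcgf6KO+ Pcgf6_flag. Its probe was spotted repeatedly, with 9, 9 and 10 spots kept and SDs between spots of 0.06, 0.04 and 0.06 on the log2 scale. Iigp1, an effector of the same family that disrupts parasite vacuoles, was at 0.43, -1.08 and -1.28 and high only on the array labelled Pcgf6KO+ Pcgf6_flag, by 2.85-fold against Pcgf6KO and 3.28-fold against wildtype. Its other probe was not well above background on any array. The high array was thus Pcgf6KO for Gbp2, Gbp3 and Irgm1 and the one labelled Pcgf6KO+ Pcgf6_flag for Iigp1, while Igtp was low in wildtype. Probes of near-identical family members, such as the guanylate-binding proteins, could share signal, which was not tested.

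Promoter sequence of the GTPases is shown because 4 of the 5 measured were higher in Pcgf6KO than in wildtype. Each run holds the 120 bases just before the annotated transcription start in RefSeq GRCm38.p6, 5′ to 3′ in the direction of the gene, with matches to the core of the interferon-stimulated response element, GAAANNGAAA on either strand, in capitals. The windows are chr3:142620543-142620662 on the plus strand for Gbp2, chr3:142559924-142560043 on the plus strand for Gbp3, chr11:58199436-58199555 on the plus strand for Igtp and chr11:48871421-48871540 on the minus strand for Irgm1.
Gbp2: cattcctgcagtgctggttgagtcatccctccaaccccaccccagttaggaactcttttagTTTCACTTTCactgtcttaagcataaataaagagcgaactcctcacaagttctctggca
Gbp3: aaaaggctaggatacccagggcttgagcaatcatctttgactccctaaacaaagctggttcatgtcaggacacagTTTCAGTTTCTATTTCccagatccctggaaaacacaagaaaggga
Igtp: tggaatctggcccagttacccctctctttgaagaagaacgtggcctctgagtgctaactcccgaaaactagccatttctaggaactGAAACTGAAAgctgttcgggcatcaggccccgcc
Irgm1: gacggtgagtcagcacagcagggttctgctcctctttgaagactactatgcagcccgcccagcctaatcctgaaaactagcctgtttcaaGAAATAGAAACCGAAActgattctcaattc
Each of the 4 held at least 1 match in this window, and a window without a match would not have been shown. These were the GTPases with a promoter sequence at hand. Iigp1, the measured GTPase within 2-fold of wildtype in Pcgf6KO, had no such sequence. The element could therefore not be set against the call within this group. Gbp2 and Igtp had 1, and Gbp3 and Irgm1 had 2 that overlap each other.

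**Figure D2:**
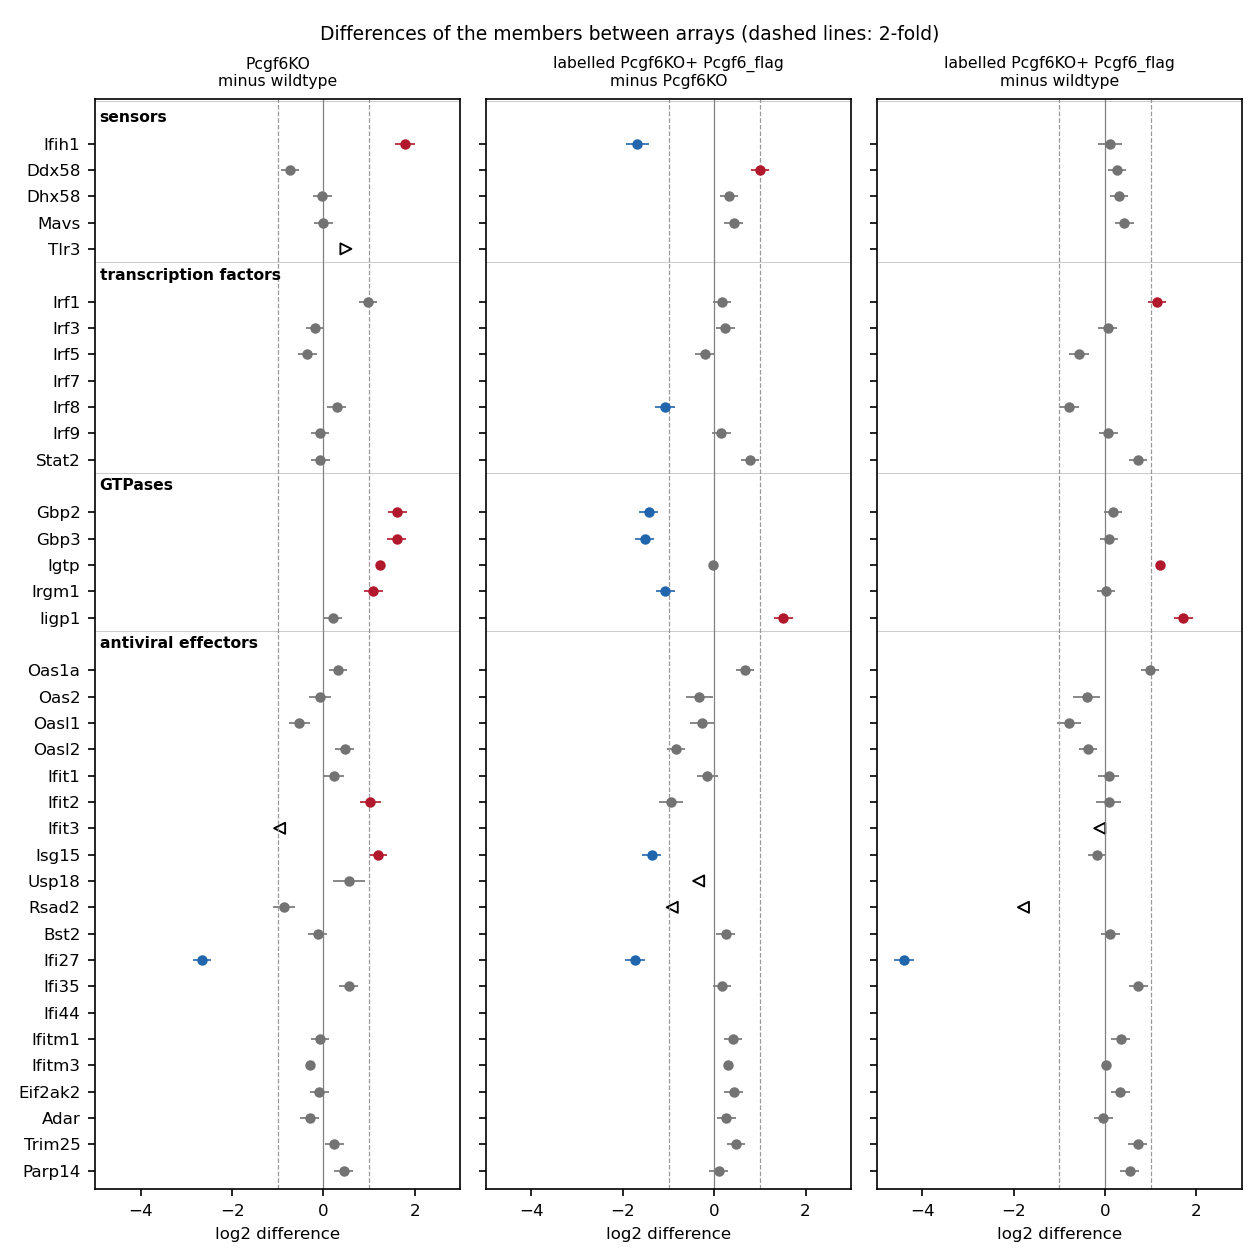
Log2 difference (horizontal axes) of each member with a probe, for Pcgf6KO minus wildtype, the array labelled Pcgf6KO+ Pcgf6_flag minus Pcgf6KO, and that array minus wildtype. Red and blue points are at least 2-fold higher or lower, bars are the scanner software's error, not replicate error, and open triangles are bounds where 1 array was not well above background, and 7 red points and 1 blue point stand in the first panel.

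Of the antiviral effectors, 18 were measured in both Pcgf6KO and wildtype, with a median difference of 0.08, beside -0.03 for all genes. Of the 18, Isg15 and Ifit2 were at least 2-fold higher and Ifi27 was at least 2-fold lower. These were 11.1% and 5.56% of the 18, beside 5.79% and 2.81% of all genes. Isg15, the interferon-induced ubiquitin-like protein that ligases attach to other proteins, was at -2.01 on the array labelled Pcgf6KO+ Pcgf6_flag, -0.64 in Pcgf6KO and -1.84 in wildtype. It was 2.29-fold higher in Pcgf6KO than in wildtype (1.20, scanner error 0.20) and 2.59-fold lower on the array labelled Pcgf6KO+ Pcgf6_flag than in Pcgf6KO (-1.37). The other Isg15 probe gave 1.34 and -2.05. Usp18, the protease that removes Isg15 from its targets and damps interferon receptor signalling, was at -5.14 in Pcgf6KO and -5.71 in wildtype, 0.56 apart. The array labelled Pcgf6KO+ Pcgf6_flag gave Usp18 no signal well above background, at least 1.27-fold lower than in Pcgf6KO.

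The IFIT proteins, which bind viral RNA at its 5′ end, differed among themselves. Ifit2 was at -4.54, -3.59 and -4.62 in the same order, high in Pcgf6KO by 2.04-fold against wildtype. This difference of 1.03 lay at the threshold and was 0.75 with normexp background correction, and 0.97 and 0.99 with quantile normalization and median scaling. Ifit1 was at -3.70, -3.55 and -3.78, with no array apart from the others. Ifit3 was well above background only in wildtype, at -5.37. There Pcgf6KO was at least 1.94-fold lower and the array labelled Pcgf6KO+ Pcgf6_flag at least 1.08-fold lower.

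Ifi27, a small hydrophobic protein that type I interferon induces, had the widest range of the members measured on all arrays. It was at -3.95 on the array labelled Pcgf6KO+ Pcgf6_flag, -2.21 in Pcgf6KO and 0.45 in wildtype. It was 6.33-fold lower in Pcgf6KO than in wildtype (-2.66, scanner error 0.20), a further 3.33-fold lower on the array labelled Pcgf6KO+ Pcgf6_flag, and 21.1-fold lower there than in wildtype. The 3 arrays stood in the order of the summed fibroblast markers given above, 32.0, 49.8 and 92.6, whose part in this difference was not tested. Rsad2, or viperin, which makes a chain-terminating nucleotide, had the same order, with -4.57 in Pcgf6KO, -3.70 in wildtype and no signal well above background on the array labelled Pcgf6KO+ Pcgf6_flag. It was there at least 1.89-fold lower than in Pcgf6KO and at least 3.44-fold lower than in wildtype.

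The members of the oligoadenylate synthetase family, known for making the second messenger that switches on RNase L, are Oas1a, Oas2, Oasl1 and Oasl2, and these 4 were within 2-fold in every comparison. Oas1c, a relative outside the set, was past 2-fold on the array labelled Pcgf6KO+ Pcgf6_flag, by 1.69 against Pcgf6KO and 1.22 against wildtype on the log2 scale. Oas1a was at 1.25, 0.58 and 0.26 on the array labelled Pcgf6KO+ Pcgf6_flag, the Pcgf6KO array and the wildtype array, highest on the first by 0.99 against wildtype, and its other probe gave 0.95. Oasl2 was at -0.66, 0.18 and -0.29, a log2 difference of 0.47 for Pcgf6KO against wildtype and of -0.84 for the array labelled Pcgf6KO+ Pcgf6_flag against Pcgf6KO. Oas2, at -4.62, -4.30 and -4.22, and Oasl1, at -4.61, -4.34 and -3.81, were both lowest on the array labelled Pcgf6KO+ Pcgf6_flag.

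Several effectors lay above the 75th percentile on every array and differed little. The interferon-induced transmembrane proteins, which block virus entry, were at 3.91, 3.50 and 3.57 for Ifitm1 and at 3.97, 3.66 and 3.95 for Ifitm3. Bst2, or tetherin, which holds budding virus on the cell surface, was at 3.40, 3.16 and 3.28. The largest difference among these 3 genes was 0.41, for Ifitm1 on the array labelled Pcgf6KO+ Pcgf6_flag against Pcgf6KO. Trim25, the ubiquitin ligase that activates RIG-I, was at 2.68, 2.20 and 1.96, and Adar, the enzyme that edits adenosine in double-stranded RNA, at 1.07, 0.81 and 1.11. Trim25 was highest on the array labelled Pcgf6KO+ Pcgf6_flag, by 0.72 against wildtype, while Adar was lowest in Pcgf6KO, by -0.30.

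Among the rest, Ifi35, a leucine-zipper protein, was at 0.53, 0.36 and -0.20 and Parp14, an ADP-ribosyltransferase, at 0.20, 0.10 and -0.34, both lowest in wildtype. Their largest difference was 0.73, for Ifi35 on the array labelled Pcgf6KO+ Pcgf6_flag against wildtype. Eif2ak2, the kinase PKR that stops translation on double-stranded RNA, was at -2.07, -2.49 and -2.41, with 0.42 as its largest difference. Ifi44 was not well above background on any array.

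For 3 effectors the promoter is shown as for the GTPases, with Isg15 as a member higher in Pcgf6KO and Ifit1 and Oas1a as members within 2-fold of wildtype that hold the same element. The windows are chr4:156200819-156200938 on the minus strand for Isg15, chr19:34640769-34640888 on the plus strand for Ifit1 and chr5:120907526-120907645 on the minus strand for Oas1a.
Isg15: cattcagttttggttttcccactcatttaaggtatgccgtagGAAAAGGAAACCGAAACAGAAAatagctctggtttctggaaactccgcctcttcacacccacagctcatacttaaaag
Ifit1: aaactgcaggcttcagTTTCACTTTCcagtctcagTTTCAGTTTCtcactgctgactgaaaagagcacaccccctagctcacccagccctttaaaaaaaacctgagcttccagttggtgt
Oas1a: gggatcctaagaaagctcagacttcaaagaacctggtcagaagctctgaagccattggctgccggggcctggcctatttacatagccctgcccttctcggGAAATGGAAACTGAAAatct
Isg15 had 3 overlapping matches, Ifit1 had 2 apart from each other and Oas1a had 2 that overlap, next to the start.

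A RefSeq promoter window of 300 bases, 250 before the start and 50 from it on, was at hand for 31 of the 39 members. The response element core was present in 15 of the 31, which is 48.4%, and in 3.99% of the 27025 genes with such a window. Of the members higher in Pcgf6KO it was in Ifih1, Gbp2, Gbp3, Igtp, Irgm1 and Isg15 and not in Ifit2. It was also in 8 members within 2-fold of wildtype, namely Ddx58, Stat2, Oas1a, Ifit1, Rsad2, Bst2, Ifitm3 and Eif2ak2, and absent from 12 others within 2-fold. The members were chosen as interferon genes, so their share is a description of the set.

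The gamma-activated site, TTCNNNGAA, was in 10 of the 31 members, 32.3%, beside 9.55% of all genes, and overlapped the response element core in Bst2 and Ifitm3. Among the members higher in Pcgf6KO it was in Igtp and Ifit2. Motifs of factors that are part of PRC1.6 were each in 1 of the 31 members, a count too small to set the members apart from all genes. The E2F letters TTCCCGC were in 1 member, Ifit2, 5 to 11 bases before its start, which is 3.23% beside 5.29% of all genes. The E-box CACGTG was in Trim25 only, also 3.23% beside 8.09%. A match of letters in this window is not a bound site, and no match says only that these letters are not there.

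**Figure D3:**
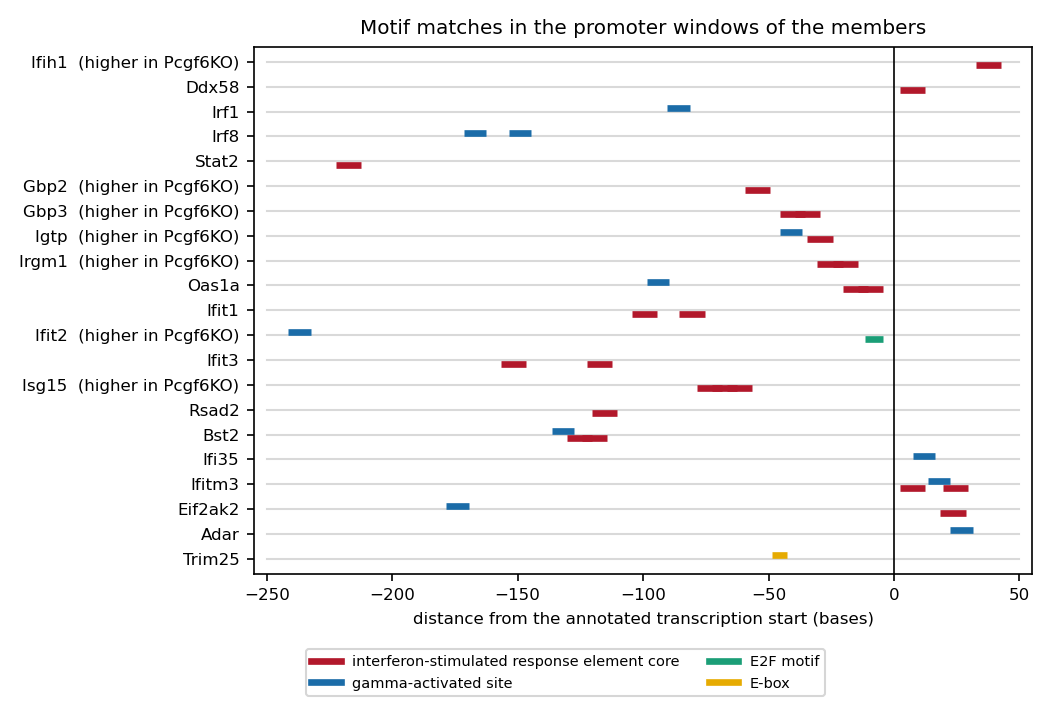
Position of motif matches in the 300-base promoter window of the members that hold at least 1, as distance in bases from the annotated transcription start (vertical line). Red bars are the interferon-stimulated response element core, blue the gamma-activated site, green the E2F letters and yellow the E-box, and members at least 2-fold higher in Pcgf6KO are marked beside their names.

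The interferons were mostly not measurable. Of the 10 ligand genes with a probe, Ifnb1, Ifng, Ifne, Ifna2, Ifna4, Ifna5 and Ifna13 were not well above background on any array. Ifnk was well above background at -4.72 in Pcgf6KO and -6.04 in wildtype, a difference of 1.32. The array labelled Pcgf6KO+ Pcgf6_flag was at least 1.70-fold below Pcgf6KO for this gene. Ifna11 was at -2.35, -4.72 and -5.20 on the array labelled Pcgf6KO+ Pcgf6_flag, the Pcgf6KO array and the wildtype array, and Ifnl3 at -2.52, -4.26 and -4.22. Both were high only on the array labelled Pcgf6KO+ Pcgf6_flag, by 2.37 and 1.73 against Pcgf6KO on the log2 scale.

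All 6 receptor genes were measured, with a median difference of 0.14 between Pcgf6KO and wildtype. Ifnlr1, the receptor chain specific to interferon lambda, was at -1.5, -1.45 and -2.59, so wildtype was low, by 1.15 against Pcgf6KO. Its partner Il10rb was at -4.67, -3.01 and -3.20, and was lower on the array labelled Pcgf6KO+ Pcgf6_flag than in Pcgf6KO by -1.65. The chains of the type I receptor, Ifnar1 and Ifnar2, were within 2-fold, with -0.46 as the largest difference, for Ifnar2 on the array labelled Pcgf6KO+ Pcgf6_flag against Pcgf6KO.

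Of 24 genes of signal transduction, 22 were measured in Pcgf6KO and wildtype, with a median of 0.13. Beside 5.79% of all genes higher and 2.81% lower, 0 of the 22 passed 2-fold, a count close to those shares for so short a list. The DNA sensor Cgas came closest, at -2.29, -0.64 and -1.62, a log2 difference of 0.98 for Pcgf6KO against wildtype and of -1.65 for the array labelled Pcgf6KO+ Pcgf6_flag against Pcgf6KO. Cgas was the 1 gene of this list past 2-fold against Pcgf6KO, where 20 were measured. That is 5% lower, beside 8.36% of all genes.

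A further list of 56 interferon-inducible genes, 42 of them measured in Pcgf6KO and wildtype, held 10 that were at least 2-fold higher in Pcgf6KO and 3 that were lower, with a median of 0.31. These were 23.8% and 7.14% of those measured, beside 5.79% and 2.81% of all genes. Those higher were Herc6 (2.36), the enzyme that attaches Isg15 in mice, the chemokine Cxcl10 (2.25), Gbp7 (2.19), the immunoproteasome subunit Psmb8 (1.64), the peptide transporter subunit Tap2 (1.53), Irgm2 (1.45), Cmpk2 (1.37), Xaf1 (1.31), the CpG-RNA-binding protein Zc3hav1 (1.25) and Rtp4 (1.13), all as log2 differences. Slfn5 and Slfn2 were well above background only in Pcgf6KO, at least 6.83-fold and at least 3.30-fold higher than in wildtype. Lower in Pcgf6KO were the DNA-binding protein Ifi204 (-2.43), the galectin gene Lgals9 (-1.72) and Lgals3bp (-1.62), which encodes a galectin-binding glycoprotein.

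Against Pcgf6KO, 38 genes of that list were measured on the array labelled Pcgf6KO+ Pcgf6_flag, of which 9 were past 2-fold downwards and 4 upwards, with a median of -0.22. These were 23.7% and 10.5% of those measured, beside 8.36% and 5.43% of all genes. Herc6 was at -4.996 there, -1.90 in Pcgf6KO and -4.26 in wildtype. Cxcl10 was at -1.66, 0.86 and -1.40 in the same order, and Gbp7 at -3.74, -1.80 and -3.99. For these 3 genes Pcgf6KO was the high array. Irgm2, at -1.86, -1.69 and -3.14, and Xaf1, at -0.01, -0.46 and -1.77, had wildtype as the low array. The genes higher than in Pcgf6KO were Gbp6 (1.88), Oas1c (1.69), Lgals9 (1.26) and Phf11d (1.03). Set against wildtype, 6 of 38 were at least 2-fold higher on that array and 3 lower, with a median of -0.02. These were 15.8% and 7.89% of those measured, beside 4.91% and 4.81% of all genes.

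**Figure D4:**
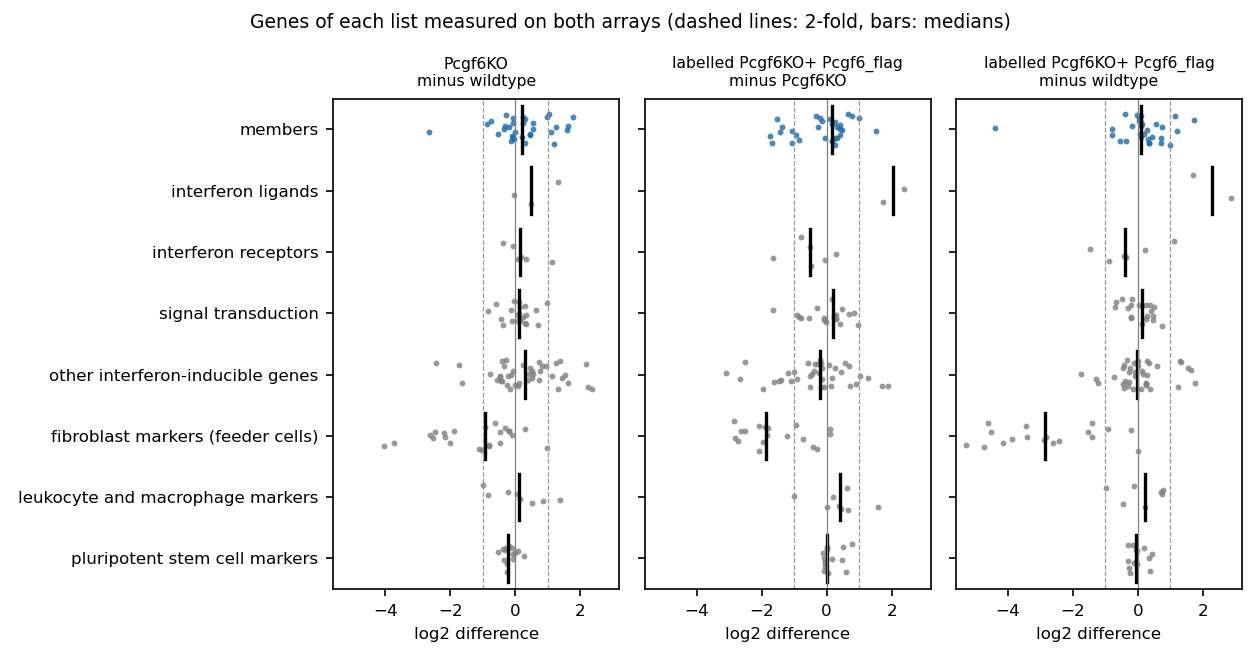
Log2 differences (horizontal axes) of the genes well above background on both arrays, for the members, the 4 other interferon lists and 3 lists of cell markers, in the same 3 comparisons, with each dot a gene, each bar the median and dashed lines at 2-fold. Most fibroblast markers lie to the left in all 3 panels, with medians of -0.93, -1.85 and -2.86. The members' medians are 0.20, 0.15 and 0.10.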

How the data were processed

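RNA from 3 mouse ES cell samples was hybridised to 3 one-colour arrays. Groups were taken from the genotype labels. The source field of the labels names muscle and the cell type field embryonic stem cell, and the second was used. Per the file headers, the deposited values are spot intensities on a linear scale from Agilent Feature Extraction 11.5.1.1, on a design annotated on mm9. The submitters' processing notes name version 10.7. The processed intensity deposited by the authors is background-subtracted and not scaled between arrays. The value table of the series equalled it for 55249 of 55249 single-spot probes on each array (relative tolerance 1e-06). It is therefore linear and neither scaled nor centred, with column medians of 313, 273 and 243 for the array labelled Pcgf6KO+ Pcgf6_flag, Pcgf6KO and wildtype, and holds no ratio. Of 59305 spots per array that were not controls, 192, 158 and 141 outliers in the same order were left out, and 0 were saturated. Between 60.7% and 66.0% of the probes were well above background. The dimmest probe well above background had a signal of 103, 53.4 and 52.7. Spots of a probe were averaged, log2 was taken, and log2 of the array's 75th percentile was subtracted. The number of arrays limits the precision.

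RefSeq accessions without their versions, set against the gene table of GRCm38.p6, gave 26762 of 55681 probes a symbol. The brightest probe stood for its gene, among those well above background on at least 1 array. A log2 difference of 1 or more either way between arrays well above background was called, with no test. Promoter sequences and their coordinates are from RefSeq GRCm38.p6, and no coordinate of the array's build was used. All members are named, with Pcgf6 and, of the other interferon lists, each gene past 2-fold between Pcgf6KO and wildtype plus up to 4 a list by the largest difference elsewhere. Of the cell marker lists up to 4 genes each and Col1a1, Col3a1, Ptprc, Csf1r, Pou5f1 and Nanog could be named. Further marker genes, Itgam among them, were named after their values were seen. The members and lists were chosen with earlier results of these data known. For normexp (limma 3.58.1 in R 4.3.3, offset 50) the planned mean spot signal was replaced by the median spot signal that these files carry. The call rule was run on simulated data whose differences all lay past the threshold, with noise between spots only. That run checked the code, not calls near the threshold or the spread between cultures. Other work was done in Python 3.11.15 with numpy 2.4.6, pandas 2.3.3 and matplotlib 3.10.9. Alternatives were another background correction, 3 other scalings, the deposited table with and without scaling, no filter on dim probes, a filter on bright probes, the mean over probes, outliers kept and other thresholds. Some genes that the naming rule selects are left out of the text.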

Additional observations from a re-analysis of the deposited data

How the results depend on the processing

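No called member changed sign. Of 939 values of single members under the alternatives 824 kept their call and moved little, 97 moved, 11 lost a call, 7 gained one and 0 reversed. Many of these values could hardly move. The deposited table, both filter settings and kept outliers use the same or nearly the same probe signals, and several scalings shift all genes by a constant. A member that a filter dropped, such as Ifit2 under the filter on bright probes, was not counted as a lost call. The 824 is therefore no measure of stability. For Pcgf6KO against wildtype, 2 of 37 members were at least 2-fold lower without a filter on dim probes, beside 881 of 20274 genes. At 1.5-fold 3 were lower, at 3-fold 3 were higher, and the median was 0.34 in the deposited values without scaling. Shares of all genes at 1.5-fold and 3-fold were not computed, so counts at those thresholds, here and below, have none beside them. For the array labelled Pcgf6KO+ Pcgf6_flag against Pcgf6KO, 1 of 31 members was higher under quantile normalization, median scaling and scaling to the 75th percentile of probes well above background throughout. Of 14241 genes, 700, 645 and 732 were higher under these 3 in that order. At 1.5-fold 4 members were higher, and at 3-fold 0 were higher and 2 lower. Without the filter 12 of 37 members were lower, beside 2195 of 20274 genes, and the median was -0.035. Against wildtype that array had 5 of 37 members lower without the filter, beside 1508 of 20274 genes. At 1.5-fold 3 members were lower and 7 higher, and at 3-fold 1 was higher. The median of the members was 0.34 without scaling and -0.02 under median scaling. Leaving out scaling, an alternative chosen after seeing the data, moved the median of all genes to 0.11 for Pcgf6KO against wildtype, 0.13 for the array labelled Pcgf6KO+ Pcgf6_flag against Pcgf6KO and 0.22 for it against wildtype, and median scaling moved the last to -0.14. Calls lost under at least 1 alternative were Ifit2 in Pcgf6KO (lowest 0.75), Irf8 (-0.89), Irgm1 (-0.97) and Ddx58 (0.91) on the array labelled Pcgf6KO+ Pcgf6_flag against Pcgf6KO, and Irf1 there against wildtype (0.96). Irf1 in Pcgf6KO passed 2-fold under 4 alternatives (up to 1.11). The cause of these moves was not tested.

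No paired analysis was possible because each group had 1 array and the labels carry no replicate numbers. Slide as a block was not run, since slide 2 holds 1 array and no residual degrees of freedom would be left. Near the lowest signal well above background, Tlr3 and Ifit3 have at most bounds in place of differences, as do Usp18 and Rsad2 in comparisons with the array labelled Pcgf6KO+ Pcgf6_flag.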

Other observations

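Interferon-inducible genes that lie in gene clusters can be set out by chromosome, as values with no test. Of the guanylate-binding proteins on chromosome 3, the log2 differences of Pcgf6KO from wildtype were 1.62 for Gbp2, 1.61 for Gbp3 and 2.19 for Gbp7, and Gbp5 was not well above background on any array. Of those on chromosome 5, they were 0.83 for Gbp4, -0.26 for Gbp6 and -0.17 for Gbp9, and Gbp8 was not well above background on any array. On the array labelled Pcgf6KO+ Pcgf6_flag against wildtype the chromosome 3 genes were at 0.18, 0.09 and 0.25 and the chromosome 5 genes at 1.53, 1.62 and 0.38, in the same gene order. The difference between these 2 clusters was not tested, and probes of near-identical family members could share signal.

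Of the immunity-related GTPases on chromosome 11, Pcgf6KO differed from wildtype by 1.09 for Irgm1, 1.25 for Igtp, 1.45 for Irgm2 and 0.52 for Ifi47, while Tgtp1 was not well above background on any array. The array labelled Pcgf6KO+ Pcgf6_flag differed from wildtype by 0.02, 1.21, 1.28 and -0.04 for the same 4 genes. Of the antigen-processing genes on chromosome 17, Pcgf6KO differed from wildtype by 1.64 for Psmb8, 0.75 for Psmb9, -0.30 for Tap1 and 1.53 for Tap2. For the array labelled Pcgf6KO+ Pcgf6_flag the differences from wildtype were 0.01, -0.44, -1.22 and 0.12 in the same gene order.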
